A study of Mus musculus with 6 samples.

Results

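The Kruppel-like factors measured here are 10 transcription factor genes, Klf2, Klf3, Klf4, Klf5, Klf6, Klf7, Klf9, Klf10, Klf11 and Klf13. They were chosen by name: every probe set whose platform gene symbol is one of these belongs to them. All 10 were found, with 34 of the 45101 probe sets in the table, out of 18193 genes with a probe set of their own, and none of the 34 was shared with another symbol. Of these probe sets, 28 were bright enough to be tested, at least 1 for each of the 10 genes.

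The mice were female HdcGFP animals, and RNA was taken from marrow of their femurs and tibias. HdcGFP reports the activity of Hdc, the histidine decarboxylase gene, by green fluorescence, on a C57BL/6 background. Sorting gave CD11b+Gr1+ cells with no or low reporter signal (GFP_min, 3 arrays) and CD11b+Gr1+ cells with reporter signal or high reporter signal (GFP_plus, 3 arrays). All samples share the reporter, so no wild-type cells were compared, and neither age, treatment, time nor the number of mice behind an array is given in the sources used here. The description of GFP_min replicate b names Gr1- cells, although its sorted-cell label names Gr1+ cells, so results below are given without it where that matters. Values are the log2 expression levels the authors deposited, and levels of different probe sets cannot be set against each other. No source used here says that the arrays of a group come from separate animals, so p-values reflect the scatter among these samples alone, which may be technical. The precision of every value is limited by 3 arrays a group.

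The array medians lay between 2.82 and 2.88. Arrays correlated at 0.996 to 0.997 within groups and at 0.978 to 0.982 between groups over all probe sets. Hdc itself, on which the cells were sorted, was 11.19 in GFP_min and 12.01 in GFP_plus, and Itgam, which encodes CD11b, was 11.58 and 11.84. Ly6g, a gene of the Gr1 antigens, was not analysed here. By limma at an adjusted p under 0.05, 21.0% of all 10810 tested genes were higher in GFP_plus and 27.6% lower. The marker counts that follow use the same threshold and are to be set beside these shares. Monocyte and macrophage markers fell in 18 of 24 tested genes and rose in 4. Their mean level was 9.67 to 9.72 on the GFP_min arrays and 6.91 to 6.94 on the GFP_plus arrays. Mature neutrophil markers rose in 14 of 16, from 12.27 to 12.29 up to 12.76 to 12.79, and primary granule genes in 7 of 7, from 9.11 to 9.26 up to 10.56 to 10.81. With poly-A centring, a scale described below, 7 neutrophil markers were higher and 2 lower. Dendritic cell markers fell in 9 of 11, from 6.17 to 6.46 down to 4.09 to 4.18, and rose in 1, and basophil and mast cell markers rose in 6 of 9, from 3.75 to 3.81 up to 5.06 to 5.07. They fell in 1, a call that was lost with any 1 array left out. Fcer1a and Cpa3, of the basophil and mast cell markers that rose, were bright enough to test through GFP_plus alone. When a level above the array median was required on all 6 arrays, 3 of these markers rose. Under that requirement 0 eosinophil markers fell and 0 B cell markers rose. Of 8 eosinophil markers 3 were tested, of which 2 rose and 1 fell, with Epx, Prg3 and Ccr3 among those too dim. The 1 that fell, Rnase2a, was bright enough to test through GFP_min alone. Car1 and Itga2b, of the erythroid and megakaryocyte markers, were so through GFP_plus alone. Erythroid and megakaryocyte markers rose in 6 of 7 and fell in 0 (0 also at an unadjusted p under 0.05), in 3 without GFP_min replicate a or GFP_plus replicate a, and in 1 with poly-A centring. Stem and progenitor markers rose in 4 of 7 and fell in 2. They share Kit and Gata2 with the basophil and mast cell list and Flt3, which fell, with the dendritic cell list. B cell markers rose in 2 of 8 and fell in 1, with 1 higher when any 1 array was left out, 5 with median centring, 7 with ribosomal centring and 0 with poly-A centring. T and NK cell markers rose in 1 of 6 and fell in 2, with 2 higher without GFP_min replicate b and 4 with median or ribosomal centring. The gene that rose, Nkg7, is also among the primary granule genes, and those that fell were Gzma and Klrd1. Endothelial and stromal markers had 3 of 10 genes bright enough to test, and limma called 0 of these 3, at an unadjusted p under 0.05 as well.

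Kruppel-like factors bind GC-rich and CACCC-type DNA through zinc fingers at the C-terminal end that are much alike across the family, while the remaining sequence decides which cofactors they recruit. Klf2, Klf4, Klf5, Klf6 and Klf7 act mostly as activators. Klf3 recruits the CtBP corepressor, and Klf9, Klf10, Klf11 and Klf13 recruit the Sin3 corepressor. In the myeloid lineage Klf4 is known as a factor of monocyte differentiation and Klf2 as a brake on inflammatory activation, and several members are induced early by growth factor, stress or TGF-beta signals.

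The 250 bases upstream of the RefSeq start (mouse assembly GRCm38.p6) are shown for the member with the largest fall, Klf4, Klf7, which rose most by the brightest probe set of each member, and Klf2, which shares with Klf4 the MEF2 arm of its known regulation. Each is printed 5' to 3' on the strand of its gene. Capitals mark every match to the motifs searched on both strands, where neighbouring matches may overlap: CACCC, the GC box GGGCGG, the cyclic AMP element TGACGTCA, the CArG box and the MEF2 site.
Klf4 (chr4:55532476-55532725, minus strand): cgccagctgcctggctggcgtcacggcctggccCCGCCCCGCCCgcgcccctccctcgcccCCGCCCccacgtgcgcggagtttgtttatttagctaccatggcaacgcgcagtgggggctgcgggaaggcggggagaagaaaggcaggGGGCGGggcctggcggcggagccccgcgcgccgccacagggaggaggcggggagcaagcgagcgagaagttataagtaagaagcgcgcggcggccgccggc
Klf7 (chr1:64121390-64121639, minus strand): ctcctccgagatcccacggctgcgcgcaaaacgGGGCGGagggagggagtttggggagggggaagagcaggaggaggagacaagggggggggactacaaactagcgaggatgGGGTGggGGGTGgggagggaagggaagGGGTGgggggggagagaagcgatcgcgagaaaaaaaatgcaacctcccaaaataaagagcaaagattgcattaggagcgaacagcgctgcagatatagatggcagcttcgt
Klf2 (chr8:72318812-72319061, plus strand): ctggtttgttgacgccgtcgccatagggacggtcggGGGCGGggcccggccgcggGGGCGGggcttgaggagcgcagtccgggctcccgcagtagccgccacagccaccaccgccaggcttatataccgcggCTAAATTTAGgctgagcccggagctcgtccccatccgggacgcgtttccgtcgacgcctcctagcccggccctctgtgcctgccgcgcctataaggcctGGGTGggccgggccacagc

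RefSeq windows were matched for 8 of the 10 members, Klf5 and Klf10 being the others. A GC box lay in 7 of the 8 and in 32.7% of all 32851 windows of this length, and CACCC in 5 of the 8 and in 52.0%. Klf4 had 4 GC boxes and no CACCC, and Klf7 had 1 GC box and 3 CACCC matches. Klf2 had 2 GC boxes, 1 CACCC match and the only MEF2 site among the 8, CTAAATTTAG at 118 to 109 bases before the start, where 2.92% of all windows hold such a site. TGACGTCA (1.55% of all windows) and the CArG box (1.47%) were in none of the 8. These matches describe the sequence and show no binding.

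The comparison asks how the family differs between CD11b+Gr1+ marrow cells with high and with little or no Hdc reporter signal. One member, Klf4, fell 39.0-fold in GFP_plus, and no other member moved by 1 log2 or more in the probe set that represents it, the brightest one tested. Klf2, Klf5, Klf6 and Klf7 rose, by 1.18-fold to 1.70-fold, and Klf9 and Klf10 fell, by 1.45-fold and 1.47-fold. Klf3, Klf11 and Klf13 were not called. Tested with limma at an adjusted p under 0.05, 4 of 10 members were thus higher, where 21.0% of all 10810 tested genes were, and 3 of 10 lower, where 27.6% were. The groups did not overlap in 7 of 10 members and in 59.3% of all genes, and with 10 members nothing beyond these shares is read from the counts. The median difference was −0.032 over the members and 0.0023 over all genes, and the median size of the difference was 0.51 against 0.30. Among the activators 4 rose and 1 fell, and among the 4 members that recruit Sin3 none rose and 2 fell. Both parts depend on the scale. With ribosomal centring, described below, Klf11 and Klf13 were higher and Klf9 and Klf10 were not called. With poly-A centring, also described below, Klf6 and Klf7 alone of the activators were higher. Klf2 was then −0.12 and Klf5 0.13, neither called. Nothing further is read from this split. By probe set, 11 of 28 were higher (21.7% of all tested) and 7 lower (22.9%).

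**Figure D1:**
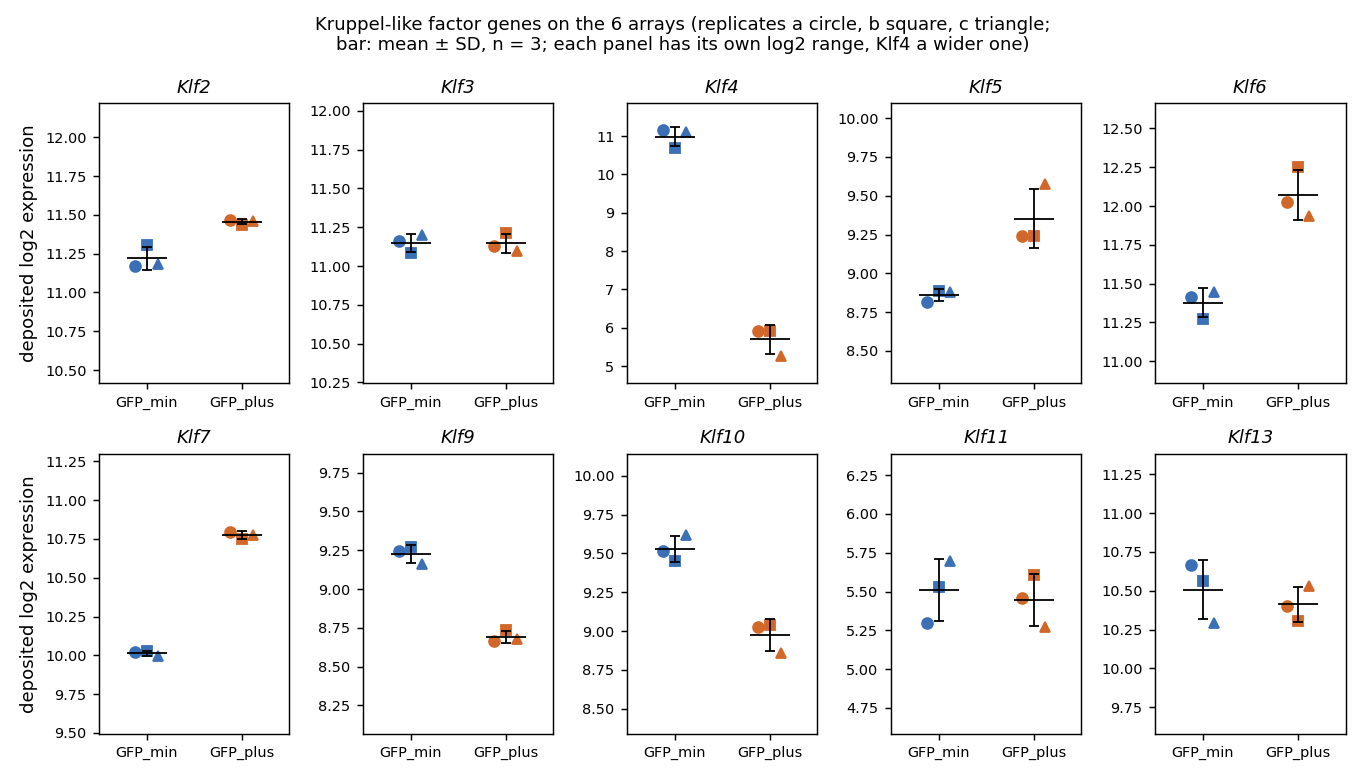
Deposited log2 expression of the 10 members in the probe set that represents each, by group, with symbols for replicates a, b and c and bars for mean ± SD (n = 3). Klf4 goes from 10.98 in GFP_min to 5.70 in GFP_plus, and each panel has its own axis range. The other panels show Klf2, Klf5, Klf6 and Klf7 higher, Klf9 and Klf10 lower, and Klf3, Klf11 and Klf13 overlapping.

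Klf4 encodes a factor needed for monocyte differentiation and known also as a brake on proliferation. Its brighter probe set, 1417394_at, read 11.15, 10.69 and 11.11 in GFP_min replicates a, b and c and 5.91, 5.91 and 5.27 in GFP_plus. Its other probe set, 1417395_at, read 9.02, 9.35 and 8.93 against 4.43, 4.27 and 4.64. Both put every GFP_min array far above every GFP_plus array, yet all GFP_plus values stayed above the array medians. Both probe sets are annotated with the same source sequence, so they are not independent. The means were 10.98 ± 0.25 and 5.70 ± 0.37 (SD, n = 3 each), a fall of 5.29 (−5.29, SE 0.18, 95% interval −5.70 to −4.87, limma adjusted p = 2.19e-08). The other probe set fell by 4.65 (SE 0.15, limma adjusted p = 1.38e-08), or 25.2-fold. Only 30 of the 10810 tested genes, 0.278%, fell as far as Klf4, which is counted among them. Under all 16 alternative settings (other filters, scales and models, and each array left out, GFP_min replicate b included) Klf4 kept its call, with differences of −5.65 to −4.75.

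The fall of Klf4 went with that of the monocyte markers given above, whose median difference was −3.14, and of the dendritic cell markers, whose median was −2.31. Among the dendritic cell markers, Cd209a, Irf4 and Siglech were bright enough to test through GFP_min alone, and Zbtb46, Xcr1 and Ccr7 were too dim. The dendritic median thus includes genes tested only because they were bright enough in GFP_min. In sorted bulk samples, fewer cells that express a gene and less of its RNA per cell cannot be told apart. The part of monocytes and dendritic cells in the fall of Klf4 was not tested. The tested genes whose centred profiles over the 6 arrays lay closest to that of Klf4 were Igkv9-120 (root mean square difference 0.14 log2), Ccr2 (0.17) and Ifi209 (0.17). Of these, Ccr2 is the chemokine receptor that draws monocytes out of marrow, and it read 12.04, 11.98 and 12.09 against 6.68, 6.75 and 6.10.

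Klf2, known for holding leukocytes in a quiescent state, read 11.17, 11.31 and 11.18 in GFP_min and 11.47, 11.44 and 11.46 in GFP_plus in its only probe set. The groups did not overlap, but the rise was small: 0.23 (SE 0.06, interval 0.11 to 0.36, limma adjusted p = 0.00666). The call of Klf2 was lost without the variance trend (limma adjusted p = 0.0524), and centring each array on the bacterial poly-A RNAs added as labelling controls turned the difference to −0.12.

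Klf5, a growth-associated activator, read 8.82, 8.89 and 8.88 in GFP_min and 9.24, 9.24 and 9.57 in GFP_plus in its brightest probe set, 1451021_a_at. That was a rise of 0.49 (SE 0.10, limma adjusted p = 0.00333), and with poly-A centring it was 0.13 and lost its call (limma adjusted p = 0.418). A dimmer probe set, 1451739_at, rose by 1.31 (SE 0.15, limma adjusted p = 8.4e-05), from 7.51, 6.89 and 7.31 to 8.57, 8.63 and 8.43. The intervals of the 2 probe sets, 0.26 to 0.72 and 0.97 to 1.65, did not overlap, so the size of the Klf5 rise depends on the probe set. A further one, 1430255_at, was too dim to test.

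Klf6, an early-response activator induced by injury and growth signals, had 5 tested probe sets, of which 3 rose. The brightest, 1433508_at, read 11.41, 11.27 and 11.45 in GFP_min and 12.03, 12.25 and 11.94 in GFP_plus, a rise of 0.70 (SE 0.08, limma adjusted p = 9.63e-05). Every GFP_plus array lay above every GFP_min array. The probe sets 1447448_s_at and 1459718_x_at rose by 0.43 (limma adjusted p = 0.000324) and 0.53 (0.0134). They are annotated with the same source sequence, so they are not independent. The last call was lost without GFP_min replicate c (0.47, limma adjusted p = 0.0539), and both were lost with poly-A centring (0.072 and 0.17). The probe set 1427742_a_at read 11.24, 11.30 and 11.10 against 11.21, 11.28 and 11.20, with a difference of 0.016 (interval −0.13 to 0.16). The interval of 1433508_at, 0.51 to 0.88, lies wholly above that one. The fifth, 1418280_at, differed by 0.50 (limma adjusted p = 0.0658). It passed without GFP_min replicate a (0.73, limma adjusted p = 0.00804) or without GFP_plus replicate b (0.62, 0.0431).

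Klf7, a close relative of Klf6, showed the largest rise among the probe sets that represent the members. The dimmer Klf5 probe set rose further, and averaged over each gene's probe sets Klf5 rose by 0.90 and Klf7 by 0.71. Its brightest probe set, 1449439_at, read 10.02, 10.02 and 9.99 in GFP_min and 10.80, 10.75 and 10.78 in GFP_plus. The groups lay well apart, with means of 10.01 ± 0.02 and 10.77 ± 0.03 (SD, n = 3 each) and a rise of 0.76 (SE 0.06, interval 0.63 to 0.89, limma adjusted p = 5.26e-06). The probe sets 1419356_at and 1419355_at rose by 1.02 and 0.74, and 1419354_at differed by 0.30 with overlapping groups (limma adjusted p = 0.0902). The last of these passed without GFP_min replicate b (0.45, limma adjusted p = 0.0081). All 4 share a source sequence in the annotation. The rises of Klf6 and Klf7 in their brightest probe sets kept their calls under all 16 alternatives, at 0.34 to 1.23 and 0.40 to 1.30. The genes with profiles closest to that of Klf7 were Wbp1l (root mean square difference 0.030 log2), Ctsd, which encodes the lysosomal protease cathepsin D (0.035), and Mctp2 (0.035).

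Klf3, the CtBP-recruiting repressor known to limit expression of activator targets, did not differ in its brightest probe set, 1454666_at, beyond the spread: 11.16, 11.08 and 11.20 against 11.13, 11.21 and 11.10. The difference was −0.0021 with an interval of −0.13 to 0.13 (limma adjusted p = 0.98). The probe set 1429360_at rose by 0.51 (SE 0.10, limma adjusted p = 0.00255), from 8.73, 8.73 and 8.55 to 9.17, 9.03 and 9.33, without overlap. With poly-A centring it was 0.15 and not called. The remaining tested probe sets of Klf3 were not called, at −0.31, −0.086 and 0.37 (limma adjusted p = 0.164, 0.703 and 0.0819), and 2 more were too dim. The first of these 3 passed without GFP_min replicate b (−0.46, limma adjusted p = 0.0357) and the last without GFP_plus replicate a (0.49, 0.0446).

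**Figure D2:**
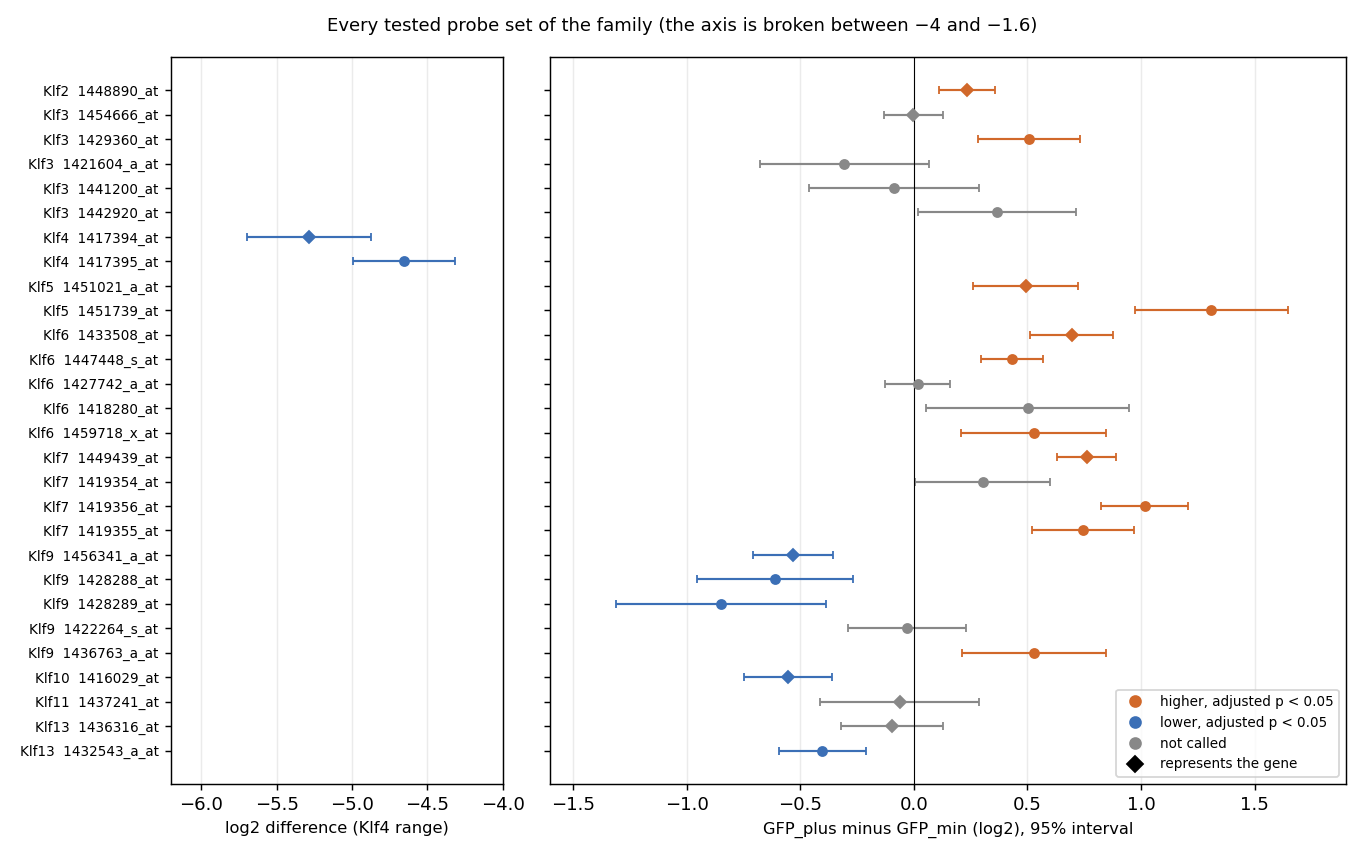
Log2 difference, GFP_plus minus GFP_min, of each of the 28 tested probe sets with its 95% interval from limma, in colours for higher, lower and not called; diamonds mark the probe set that represents the gene, and the axis is broken. Both Klf4 probe sets lie near −5, the called probe sets of Klf5, Klf6 and Klf7 between 0.43 and 1.31, and those of Klf9 on both sides of 0.

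Klf9, a hormone-responsive repressor that recruits Sin3, read 9.24, 9.27 and 9.16 in GFP_min and 8.66, 8.74 and 8.68 in GFP_plus in its brightest probe set, 1456341_a_at. It fell by 0.53 (SE 0.08, interval −0.71 to −0.36, limma adjusted p = 0.000425) without overlap. The probe sets 1428288_at and 1428289_at fell by 0.61 and 0.85 (limma adjusted p = 0.00907 and 0.00795), the latter with GFP_plus values as far apart as 6.28, 6.01 and 6.92. Both are annotated with the same source sequence, so they are not independent. A probe set near the array medians, 1436763_a_at, rose by 0.53 (limma adjusted p = 0.0124), from 2.73, 2.55 and 2.96 to 3.19, 3.12 and 3.51. On the deposited scale Klf9 was thus the member with calls in opposite directions, and the opposing probe set lay near the array medians. Another near the medians, 1422264_s_at, differed by −0.032 and was not called, and 2 more were not tested.

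Klf10, first described as a gene induced early by TGF-beta, read 9.52, 9.45 and 9.62 in GFP_min and 9.03, 9.04 and 8.86 in GFP_plus in its only probe set, all GFP_plus arrays being lower. It fell by 0.55 (SE 0.09, interval −0.75 to −0.36, limma adjusted p = 0.000584). Klf11, its closest relative, read 5.30, 5.53 and 5.70 against 5.46, 5.61 and 5.27, with overlapping groups and a difference of −0.062 (interval −0.41 to 0.29).

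Klf13, known in lymphocytes as a regulator of Ccl5, had 2 tested probe sets that gave different results. The brighter, 1436316_at, read 10.66, 10.56 and 10.29 in GFP_min and 10.40, 10.30 and 10.53 in GFP_plus and was not called (−0.096, limma adjusted p = 0.464). The other, 1432543_a_at, read 10.47, 10.79 and 10.60 against 10.22, 10.15 and 10.28 without overlap and fell by 0.40 (SE 0.09, limma adjusted p = 0.0036). Averaged over its probe sets, Klf13 differed by −0.25 (limma adjusted p = 0.0165). With median centring the fall of the second probe set was 0.20 (−0.20) and lost its call, and with ribosomal centring it turned to 0.13.

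The directions of the small changes depended on how the arrays were scaled. Centring on the median of the tested probe sets adds 0.20 to every difference, centring on the ribosomal protein probe sets adds 0.54, and poly-A centring adds −0.36. With ribosomal centring 7 members were higher (Klf2, Klf3, Klf5, Klf6, Klf7, Klf11 and Klf13) and Klf4 alone lower. Klf9 was then 0.0032 and Klf10 −0.017, neither called. With poly-A centring Klf6 and Klf7 were higher, and Klf3, Klf4, Klf9, Klf10 and Klf13 lower. Of all called genes, higher ones made up 43.2% on the deposited scale, 50.2% after quantile normalization, 68.1% with median centring, 86.1% with ribosomal centring and 8.21% with poly-A centring. In the probe sets that represent the members, Klf4 lower, and Klf6 and Klf7 higher, were the calls shared by these 5 scales. This did not hold for every probe set of Klf6 or Klf7. With poly-A centring 1427742_a_at of Klf6 was called lower (−0.34, limma adjusted p = 0.00599), and with median or ribosomal centring it was called higher (0.22 and 0.55). In Klf7, 1419354_at was not called as deposited (0.30, limma adjusted p = 0.0902) and was −0.055 with poly-A centring. RNA quality can be read from how far 3' probe sets exceed 5' ones: this gap was wider in GFP_plus by 0.32 for Gapdh and by 0.061 for beta-actin. Its part in these results was not tested.

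**Figure D3:**
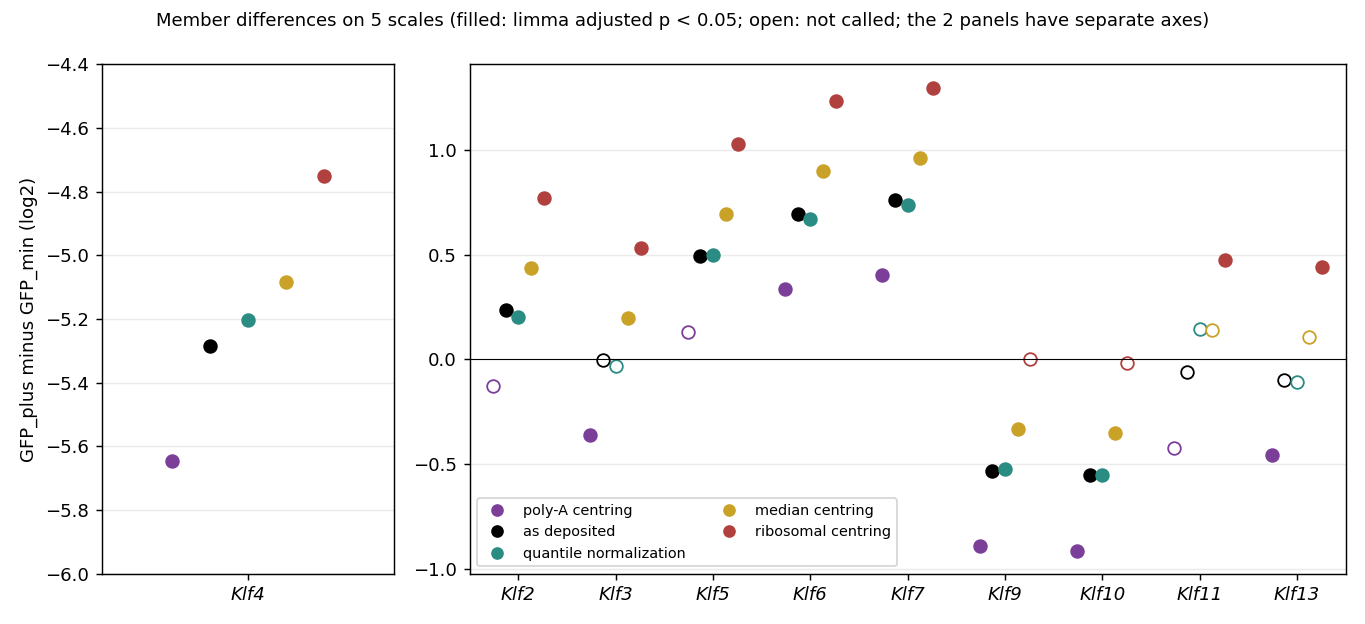
Log2 difference, GFP_plus minus GFP_min, of each member on 5 scales: as deposited, after quantile normalization, and centred on poly-A controls, on the median or on ribosomal protein probe sets; filled points pass limma's adjusted p of 0.05. Klf4 lies between −5.65 and −4.75 on every scale, Klf6 and Klf7 stay above 0 and filled, and Klf9 and Klf10 reach about 0 with ribosomal centring.

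Of the 16 other family members and related SP factors listed, which bind the same kind of DNA site, 13 had a probe set of their own and 5 were bright enough to test. By limma 0 of 5 were called at an adjusted p under 0.05, and 2 (Sp3 and Sp4) were higher at an unadjusted p under 0.05. Sp1, a ubiquitous activator, was 11.08 and 11.17 (limma adjusted p = 0.196), and Sp3 was 11.33 and 11.62 (0.0885). Sp4 read 5.44, 4.43 and 5.49 in GFP_min and 5.86, 6.58 and 5.50 in GFP_plus, a difference of 0.86 with a wide spread (limma adjusted p = 0.0536). Klf14 (2.58 and 2.81) and Klf16 (3.13 and 3.03) lay near the array medians. Sp3 passed without GFP_plus replicate c (0.44, limma adjusted p = 0.00746), and Sp4 without GFP_plus replicate c (1.10, 0.0263) or without GFP_min replicate c (1.04, 0.0434). After quantile normalization Sp4 was called higher (1.04, limma adjusted p = 0.0214). With median centring Sp1, Sp3 and Sp4 were called higher (0.30, 0.49 and 1.06). Averaged over each gene's probe sets, Sp1 (0.26) and Sp4 (0.63) were called higher. With ribosomal centring all 5 were higher, and with poly-A centring 2 were lower. The erythroid factor Klf1 and Klf12, Klf15, Klf17, Sp5, Sp6, Sp7 and Sp8 were too dim to test.

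Corepressors of the family, among them the CtBP and Sin3 genes, were lower in 1 of 10 tested (27.6% of all genes) and higher in 0 (21.0%) by limma. The counts were the same at an unadjusted p under 0.05, and the median difference was 0.064. The lower one was Sap30, a subunit of the Sin3 complex, which read 11.58, 11.70 and 11.55 in GFP_min and 10.98, 10.86 and 10.90 in GFP_plus and fell by 0.69 (SE 0.06, limma adjusted p = 1.25e-05). With ribosomal centring 9 of the 10 were higher (7403 of all 10810 genes), and with poly-A centring 7 were lower (5588). Sap30 was lower on both. Without GFP_min replicate b, 1 corepressor gene was higher. Of 4 coactivator genes, Kat2a, a histone acetyltransferase, fell by 1.87 (5.88 to 4.01, limma adjusted p = 2.09e-05). Kat2a kept its call under all 16 alternatives, but the size of its difference varied from −2.23 to −0.95. Ep300 and Kat2b, also acetyltransferases, rose by 0.34 (limma adjusted p = 0.0221) and 0.16 (0.0398). Ep300 lost its call without GFP_min replicate b (0.26) or c (0.33) or GFP_plus replicate b (0.23), and Kat2b without GFP_min a (0.15) or c (0.16) or GFP_plus a (0.16) or c (0.15). With poly-A centring Ep300 turned to −0.021 and Kat2b to −0.19.

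Upstream regulators of Klf2 and Klf4 were lower in 6 of 11 tested (27.6% of all genes) and higher in 4 (21.0%), with a median difference of −0.38. They include genes of the MEK5, ERK5 and MEF2 route, FOXO factors, ubiquitin ligase genes and Stat6, a cytokine-activated transcription factor gene. With poly-A centring 0 were higher and 7 lower, and with ribosomal centring 4 were higher and 2 lower. Mef2c, whose product activates Klf2 and Klf4 in other tissues, read 7.16, 7.24 and 7.14 in GFP_min and 5.52, 5.15 and 5.29 in GFP_plus and fell by 1.86 (SE 0.14, limma adjusted p = 3.87e-06). Mef2a fell by 0.74 (limma adjusted p = 2.1e-05). Foxo3, a FOXO factor, and Map3k3, a kinase above MEK5, rose by 0.57 (5.61e-05) and 0.39 (0.000601), and neither kept its call with poly-A centring. The other FOXO gene of the list, Foxo1, went the other way and fell by 0.92 (4.06 to 3.14, limma adjusted p = 0.00346). Its GFP_plus values lay near the array medians. Mef2c and Mef2a were lower on all 5 scales. Mef2c fell while Klf2, the member with a MEF2 site in its window, rose slightly and Klf4 fell. No value here tests a link between them.

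In the TGF-beta arm, which induces Klf10 and Klf11 in other cells, 2 of 7 genes were higher (21.0% of all genes) and 1 lower (27.6%). The receptor gene Tgfbr1 rose by 0.47 (limma adjusted p = 0.00316), Smad3 by 0.50 (0.0139), and the ligand gene Tgfb1 fell by 0.57 (4.54 to 3.97, 0.00717). Smad3 lost its call without GFP_min replicate c (0.42) or GFP_plus replicate a (0.40). With poly-A centring the count was 0 higher and 2 lower, and with ribosomal centring 6 higher and 0 lower.

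Genes reported elsewhere as targets of the family were lower in 6 of 11 tested (27.6% of all genes) and higher in 2 (21.0%), with a median difference of −0.21. Itgb7, an integrin gene reported under Klf2, read 9.48, 9.80 and 9.52 in GFP_min and 5.87, 5.63 and 6.10 in GFP_plus and fell 13.3-fold (limma adjusted p = 4.54e-08). Thbd, the thrombomodulin gene, fell by 1.48 and the chemokine gene Ccl5 fell by 1.66. Cdkn1a, a cell cycle inhibitor gene, fell by 1.52. Ccl5 fell where Klf13 was not called in its brighter probe set and differed by −0.40 in the other (limma adjusted p = 0.0036). Itgb7, Thbd, Ccl5 and Cdkn1a were lower on all 5 scales and without any 1 array. With ribosomal centring 6 were higher and 5 lower, and with poly-A centring 0 and 6. Of the 2 higher genes, 1 was left without GFP_min replicate b or c or without GFP_plus replicate a or b. The list mixes targets that the family activates and represses, so its counts show no activity of a factor.

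Immediate early genes, a class to which several Kruppel-like factors belong and which cell handling can induce, were higher in 11 of 16 tested (21.0% of all genes) and lower in 1 (27.6%), with a median difference of 0.40. Their mean level was 7.89 to 8.0 on the GFP_min arrays and 8.42 to 8.47 on the GFP_plus arrays. Junb, an AP-1 subunit, read 6.38, 5.96 and 5.81 in GFP_min and 8.18, 8.08 and 8.27 in GFP_plus and rose by 2.13 (limma adjusted p = 3.57e-06). Zfp36, an mRNA decay factor gene, rose by 0.93, Jund by 0.81 and Dusp1, a MAP kinase phosphatase gene, by 0.68. With poly-A centring 7 were higher and 3 lower. The list moved in the direction of Klf2, Klf5, Klf6 and Klf7 and against Klf4, Klf9 and Klf10, and the part of cell handling in these values was not tested.

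**Figure D4:**
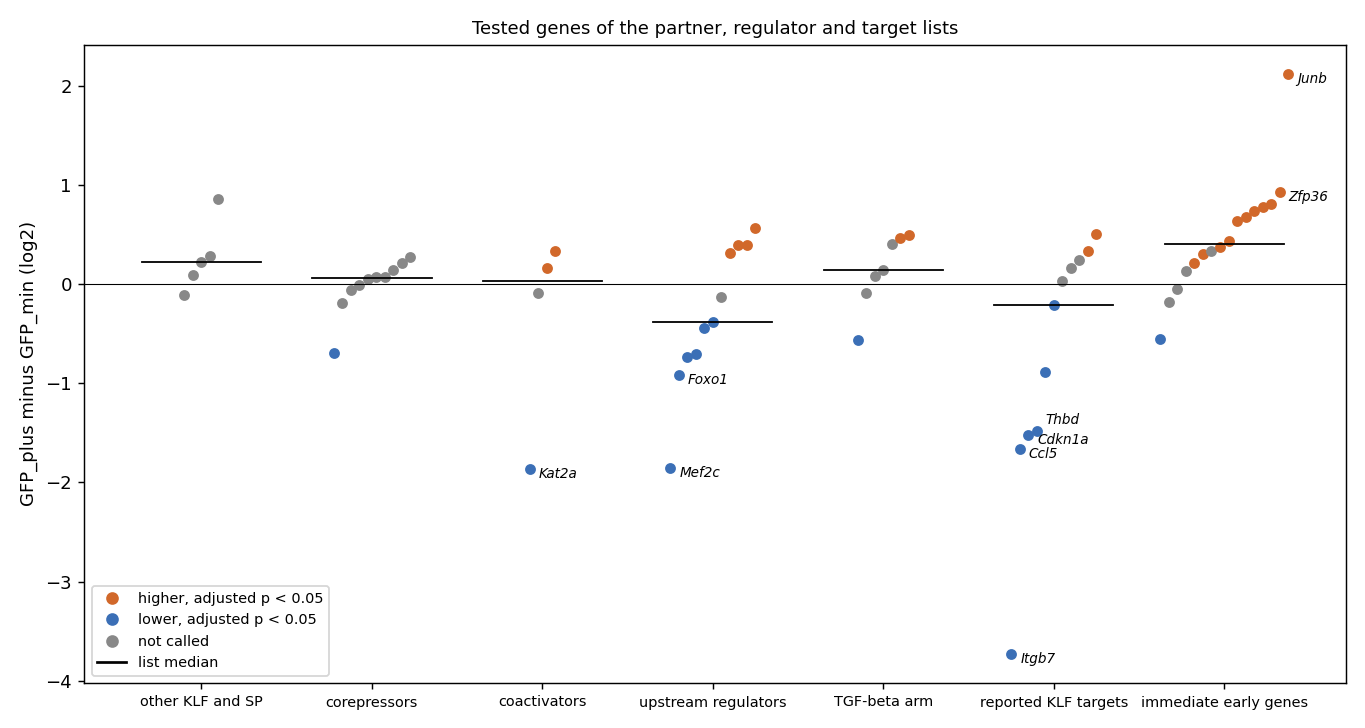
Log2 difference, GFP_plus minus GFP_min, of each tested gene in 7 lists, one column a list, in colours for higher, lower and not called by limma, with a line at the list median. Itgb7 (−3.73), Kat2a (−1.87) and Mef2c (−1.86) are the lowest points and Junb (2.13) the highest.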

How the data were processed

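Total RNA of the sorted cells was labelled with a 3' IVT kit and hybridised to Affymetrix mouse arrays, per the labels' protocols. The authors deposited log2 expression values of 45101 probe sets on 6 arrays, and GCRMA is the tool in the submitters' processing notes. The sources used here give neither its version nor its settings. The log2 scale was read from their range, 0.87 to 14.92.

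GEO's platform annotation named the probe sets. It gave 1 symbol for 34945, several for 932 and none for 9160, leaving aside 64 controls. Gene IDs of 34741 were found in RefSeq's GRCm38.p6 table, which updated symbols. Testing required a level above the array's own median on 3 or more of the 6 arrays, which 22956 probe sets reached, 19113 of them with 1 symbol. Each of 10810 genes was represented by the tested probe set whose mean over the 6 arrays was highest.

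GFP_plus minus GFP_min was fitted in limma 3.58.1 (R 4.3.3) by lmFit and trended eBayes. P-values were Benjamini-Hochberg adjusted over the 22956 probe sets, and 0.05 was the threshold. Data were simulated for this comparison with 10810 genes, 200 of them shifted, and independent noise for each gene. There, 43% of the genes shifted by 0.5 log2 and 89% of those shifted by 1 log2 were called, as were 4 unchanged genes. In the arrays far more genes were called, and p-values were adjusted over 22956 probe sets, so these rates describe the simulation alone. As alternatives the level filter, variance trend, array weights, scaling and choice of a gene's probe set were altered 1 at a time, replicate letters entered as a block, and single arrays were left out. The centring sets were the tested probe sets, 85 ribosomal protein and 27 poly-A control probe sets.

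The members and the gene lists were chosen with earlier results of these data known. The genes named are all members, all other family and SP genes tested, up to 4 called genes of each partner, regulator, target and immediate early list by smallest adjusted p (2 by size where none was called), and the 3 nearest profiles of the members with the largest rise and fall. Foxo1 is named besides, as the other FOXO gene of the upstream list, and marker genes are named where their limits are given. Plots used matplotlib 3.10.9 (Python 3.11.15).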

Additional observations from a re-analysis of the deposited data

How the results depend on the processing

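Of 160 member differences recomputed, 138 kept their direction and their side of the threshold and 16 changed sign. Calls were lost in 5 and gained in 7, sign changes included. The cause of these changes was not tested, beyond the constant that each centring adds. Members higher and lower numbered 7 and 1 with ribosomal centring and 2 and 5 with poly-A centring, against 4 and 3 as reported, and 4 and 3 without any 1 array. With median centring Klf3 was 0.20, Klf11 0.14, Klf13 0.11, Klf16 0.097, and the Klf3 and Klf9 probe sets 1441200_at and 1422264_s_at were 0.12 and 0.17. With ribosomal centring Klf3 was 0.53, Klf9 0.0032, Klf11 0.47, Klf13 0.44 and Klf16 0.43. The probe sets 1421604_a_at, 1441200_at, 1422264_s_at and 1432543_a_at were then 0.23, 0.45, 0.50 and 0.13. With poly-A centring Klf2 was −0.12, Klf14 −0.13, Sp1 −0.26, Sp3 −0.069, Ep300 −0.021 and Kat2b −0.19, and the probe sets 1427742_a_at of Klf6 and 1419354_at of Klf7 were −0.34 and −0.055. With quantile normalization Klf11 was 0.15, and 1441200_at and 1427742_a_at were 0.11 and −0.024. Averaging its probe sets put Klf3 at 0.096. Leaving out single arrays gave −0.035 to 0.025 for Klf3, −0.17 to 0.033 for Klf11, −0.0084 to 0.39 for Klf14, −0.23 to 0.068 for 1441200_at, −0.042 to 0.060 for 1427742_a_at and −0.11 to 0.051 for 1422264_s_at. Same-lettered arrays did not deviate together (correlations −0.18, −0.30 and −0.22), and 0 of 6 arrays correlated best with their own letter. With the letters as a replicate block, 4 members were higher and 3 lower, and 1737 and 2603 of all genes, against 2275 and 2988. Among the genes named, leaving aside Foxo1 and the marker genes, Ep300 (limma adjusted p = 0.0606) and Kat2b (0.151) lost their calls under the block. Signal near the array medians limits what the dim probe sets can show.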
